A study of Homo sapiens with 4 samples.

Results

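A set of 10 genes of cellular iron handling was followed through ribosome profiling of PANC-1 cells, an established line from a human pancreatic ductal adenocarcinoma. The 10 genes are the ferritin subunits FTH1 and FTL, the uptake genes TFRC and SLC11A2, the exporter SLC40A1, the iron-regulatory proteins ACO1 and IREB2, the ferritin receptor NCOA4, the iron chaperone PCBP1 and the heme oxygenase HMOX1. They were chosen by name, with earlier results of these data known. All 10 were found among the 20307 genes of the deposited table through their Ensembl identifiers. The groups were 2 libraries of PANC-1 cells labelled as depleted of FBXO32, an F-box protein of a ubiquitin ligase, and 2 libraries of PANC-1 negative controls. Both groups were grown in the same medium, treated with 100 μg/mL cycloheximide for 2 min and digested with RNase I and DNase I. The labels do not say how FBXO32 was depleted, whether the depleted cells were a clone, or what separated the cultures, which they call bioreplicates. The p-values therefore rest on the spread between these libraries, which may be technical. For most tested genes that spread is pooled over genes, not measured for the gene itself.

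Free iron is both a cofactor and a source of oxidative damage, and cells store what they do not use in ferritin, a shell of heavy (FTH1) and light (FTL) subunits. Transferrin-bound iron enters through the transferrin receptor TFRC, and SLC11A2 carries the ferrous ion across the endosomal membrane. Iron-poor cells let the iron-regulatory proteins ACO1 and IREB2 bind iron-responsive elements (IREs), RNA hairpins with a CAGUGN loop. Binding in a 5′ UTR blocks translation of ferritin mRNA, and binding in the 3′ UTR protects TFRC mRNA from decay.

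The hairpins are shown because FTH1 and FTL, which carry one in the 5′ UTR, and TFRC, which carries several in the 3′ UTR, did not move alike between the groups. The annotated UTRs were searched on the sense strand, since the element acts in RNA, for a C, any 5 bases, the loop CAGTGN and 5 bases able to pair with the first 5 (G with T included). It matched 4 of the 10 genes. The capitals mark the bulged C and the 6-base loop, all from GENCODE release 29 transcripts on GRCh38. The outer 6 bases on each side are flanking sequence that the search did not require to pair.
FTH1, 5′ UTR, chr11:61967574-61967602, minus strand: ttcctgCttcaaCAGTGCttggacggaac
FTL, 5′ UTR, chr19:48965335-48965363, plus strand: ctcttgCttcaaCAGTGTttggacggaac
SLC40A1, 5′ UTR, chr2:189580661-189580689, minus strand: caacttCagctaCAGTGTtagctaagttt
TFRC, 3′ UTR, chr3:196050979-196051007, minus strand: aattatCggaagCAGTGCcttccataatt
TFRC, 3′ UTR, chr3:196050575-196050603, minus strand: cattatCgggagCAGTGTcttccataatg
TFRC, 3′ UTR, chr3:196050510-196050538, minus strand: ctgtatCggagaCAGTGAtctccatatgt
TFRC, 3′ UTR, chr3:196050463-196050491, minus strand: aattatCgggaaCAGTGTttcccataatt

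The FTH1 and FTL hairpins had the same base at 26 of 29 positions, while FTH1 and SLC40A1 shared 13. The 4 TFRC hairpins shared between 18 and 25 positions with each other and between 9 and 11 with that of FTH1. In the transcripts with the longest coding sequence, the ferritin hairpins ended 148 nt (FTH1) and 144 nt (FTL) before the start codon. The first of the TFRC hairpins began 934 nt and the last 1450 nt past the end of the coding sequence. Only transcripts with a complete coding sequence were searched: 6 of the 8 annotated protein-coding transcripts of FTH1, the 1 of FTL, 3 of 4 of TFRC and 1 of 5 of SLC40A1. The match was held by 5 of those of FTH1, the 1 of FTL, all 3 of TFRC and the 1 of SLC40A1. SLC11A2, of which some transcripts are known to carry a 3′ IRE, had no match, which says only that these letters are not in the UTRs searched. Among all genes in the table, 31 of 18559 with an annotated 5′ UTR (0.167%) and 126 of 18869 with a 3′ UTR (0.668%) held a match, over UTRs of any length.

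The footprint level of each gene was 1 TPM value per library, a share of the library's reads scaled by gene length. The scaling removes read depth, which is unknown here, and counting intervals are not given. A library held 13307 to 13805 genes with a value above 0. The 11623 genes with 1 TPM or more in 2 or more libraries were tested with limma on log2(TPM + 1). Their log2 levels correlated at a Pearson r of 0.961 within the depleted pair, 0.958 within the control pair and 0.835 to 0.921 between libraries of different groups. FBXO32 itself had 14.3 and 12.9 TPM in the depleted libraries and 18.1 and 21.6 TPM in the negative controls. That difference did not pass the test (log2 fold change -0.51 ± 0.45, SE, limma adjusted p = 0.429), so depletion is known from the labels alone. Of the markers of this cell type, KRT8 ranged from 119.8 to 506 TPM and VIM from 477 to 1837 TPM over the libraries, with depleted replicate 2 lowest for both. KRT7 stayed under 4 TPM, and KRT19 had 10.4 to 30.5 TPM. The 5 erythroid markers summed to at most 1.00 TPM in a library, the 5 macrophage markers to at most 5.24 TPM and the 5 hepatocyte markers to at most 3.76 TPM. ALAS2, PTPRC and HAMP were listed at 0 in every library. The 5 fibroblast markers summed to 35.6 and 39.0 TPM in the depleted libraries and 111 and 87.7 TPM in the controls. COL1A1 held nearly all of that sum, and its part in the results below was not tested.

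Ferritin footprints of both subunits were lower in the FBXO32-depleted libraries. The fold change was larger for the heavy subunit, and the difference between the subunits was not tested. FTH1 (ENSG00000167996, chromosome 11, 61959718 to 61967660, minus strand), the subunit with the ferroxidase centre that oxidises iron for storage, had 315 and 552 TPM in the depleted libraries and 5051 and 2421 TPM in the controls. Both depleted values lay far below both control values. FTH1 fell by 3.06 ± 0.35 on the log2 scale (SE), 8.37-fold lower with a 95% confidence interval of the log2 fold change from -3.76 to -2.37 (limma adjusted p = 2.47e-15). This SE, interval and p-value use the spread pooled over genes, not that of the FTH1 values alone. Without the filter on low values the same fold change had a limma adjusted p of 0.00876. It ranked 553 and 332 by level among the 11623 tested genes in the depleted libraries, against 13 and 50 in the controls. By size of fall it ranked 92 of 11623.

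FTL (ENSG00000087086, chromosome 19, 48965301 to 48966878, plus strand), the subunit that helps build the iron core, had 38.6 and 43.0 TPM in the depleted libraries and 189 and 130.2 TPM in the controls. The groups did not overlap. FTL fell by 1.92 ± 0.40 on the log2 scale, 3.78-fold lower (95% confidence interval -2.71 to -1.13, limma adjusted p = 3.29e-05). Leaving out negative control replicate 1 ended the call of FTL (-1.65, limma adjusted p = 0.0846), while FTH1 passed without any 1 library, with log2 fold changes from -3.60 to -2.53. Together the ferritin genes made up 0.0354% and 0.0595% of the TPM in the depleted libraries and 0.524% and 0.255% in the controls.

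**Figure D1:**
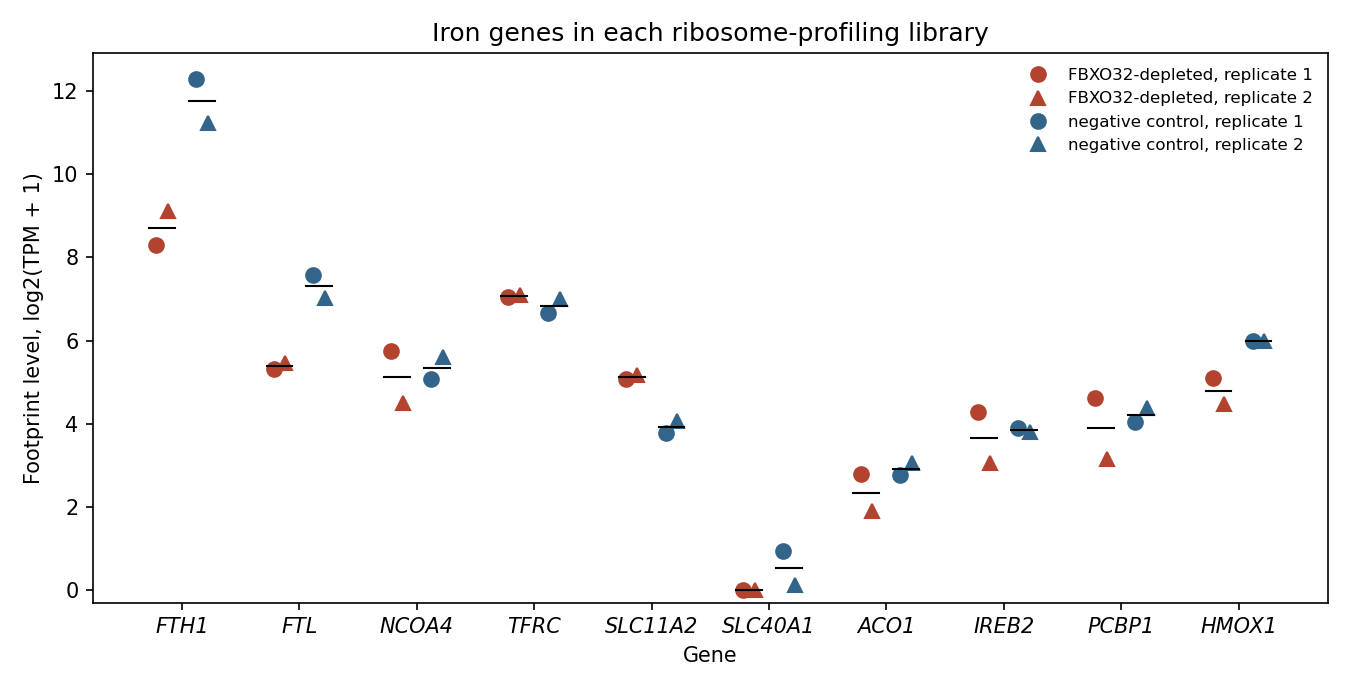
Footprint level as log2(TPM + 1) of the 10 iron genes in each library, with FBXO32-depleted libraries in red left of negative controls in blue, circles for replicate 1, triangles for replicate 2 and a bar at each group's mean. FTH1 and FTL lie lower in both depleted libraries, SLC11A2 lies higher, and ACO1, IREB2, NCOA4 and PCBP1 spread more between the depleted replicates than between the groups.

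Without RNA-seq, which was not analysed here, altered mRNA abundance and altered translation give the same footprint difference and cannot be told apart. In such bulk libraries, fewer cells with ferritin footprints and fewer footprints per cell cannot be told apart. FTH1 and FTL also have many processed copies in the genome. Of the 525 windows of 28 nt in the FTH1 coding sequence, 480 (91.4%) also occurred in an annotated transcript of another gene, and 17 genes held at least 1. For FTL this was 312 of 501 windows (62.3%) and 6 genes. None of those genes has a row in the table, and the sources used here do not state how reads matching several places were counted. The ferritin values are therefore uncertain in level, and the part of shared reads in the difference was not tested.

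The ratio of heavy to light subunit footprints was lower in the depleted libraries. FTH1 TPM was 8.15 and 12.8 times FTL TPM in the depleted libraries, and 26.7 and 18.6 times in the controls. The groups did not overlap, with means of 10.5 ± 3.31 in the depleted libraries and 22.6 ± 5.71 in the controls (SD, n = 2 each). The log2 ratio differed by -1.12 between group means. With 2 against 2 libraries no exact permutation test can pass the threshold, so none was run on ratios.

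NCOA4, the receptor that carries ferritin to the lysosome for iron release, did not pass the test. It had 52.98 and 21.6 TPM in the depleted libraries and 32.5 and 47.5 TPM in the controls. The depleted values enclosed the control values, and the log2 fold change of -0.21 ± 0.43 did not pass (limma adjusted p = 0.764, 95% confidence interval -1.04 to 0.63). Its sign turned positive without depleted replicate 2 (0.42) and without negative control replicate 2 (0.06). Of its 1926 coding windows of 28 nt, 32.8% also occurred in transcripts of other genes.

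Of the uptake genes, SLC11A2 was higher in the depleted libraries and TFRC did not pass the test. SLC11A2 (ENSG00000110911, chromosome 12, 50979401 to 51028566, minus strand), also called DMT1, had 32.9 and 35.3 TPM in the depleted libraries and 12.8 and 15.9 TPM in the controls. The groups were apart and each was tight. SLC11A2 rose by 1.20 ± 0.44 on the log2 scale, 2.30-fold higher (95% confidence interval 0.33 to 2.07, limma adjusted p = 0.0307). The call ended without depleted replicate 2 (limma adjusted p = 0.114), negative control replicate 1 (0.312) or negative control replicate 2 (0.102), with log2 fold changes of 1.06 to 1.35 when 1 library was left out. One TPM value per gene sums its transcripts with and without an IRE, so these isoforms could not be compared.

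TFRC (ENSG00000072274, on the minus strand of chromosome 3, 196027183 to 196082189) had 132.5 and 136 TPM in the depleted libraries and 100.5 and 127 TPM in the controls. Both depleted values were above both control values, by a small margin. The log2 fold change of 0.25 ± 0.39 did not pass (limma adjusted p = 0.686), and its interval from -0.52 to 1.02 allows a change of up to 2.02-fold upward. With the trend on coding length removed, the log2 fold change was 0.90 and passed (limma adjusted p = 0.0406).

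The order of the pair FTL and TFRC differed between the groups. TFRC lay above FTL in both depleted libraries and below it in both controls. In negative control replicate 2 the gap was narrow, with 127.4 TPM for TFRC and 130.2 TPM for FTL. Set against FTH1, TFRC TPM was 0.421 and 0.247 of FTH1 TPM in the depleted libraries, and 0.0199 and 0.0526 in the controls. FTH1 was thus 2.38 and 4.05 times TFRC in the depleted libraries, and 50.3 and 19.0 times in the controls. The log2 ratio of TFRC to FTH1 was 3.32 higher in the depleted libraries. That difference came mostly from FTH1, whose log2 fold change was -3.06 against 0.25 for TFRC.

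**Figure D2:**
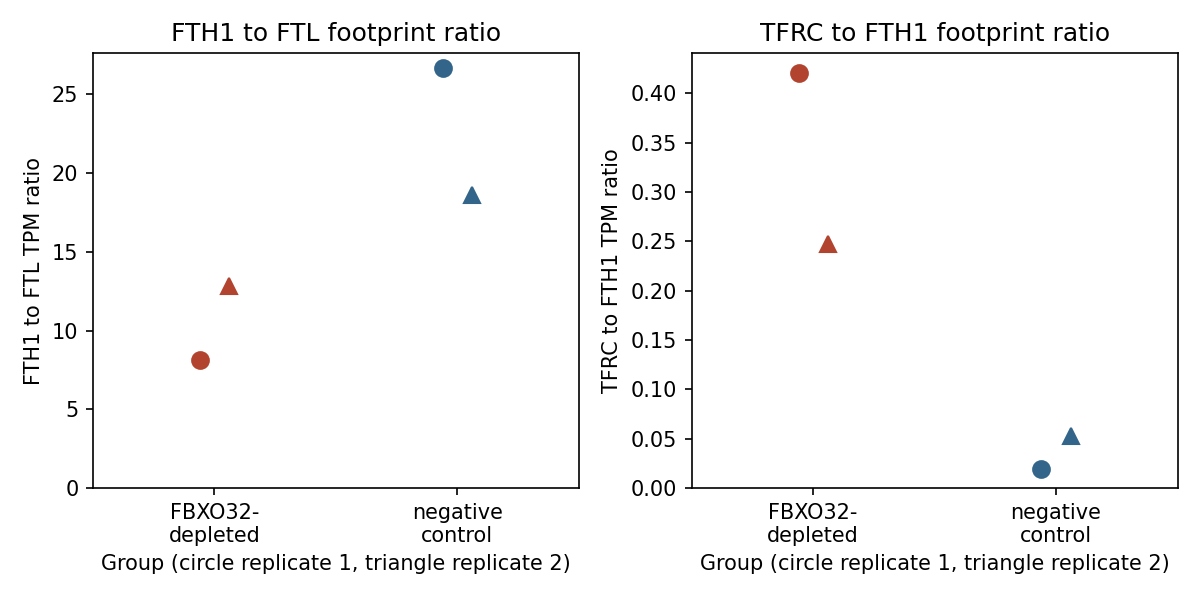
Ratio of FTH1 to FTL TPM (left panel) and of TFRC to FTH1 TPM (right panel) in each library, FBXO32-depleted in red and negative control in blue, both axes from 0. The FTH1 to FTL ratio is 8.15 and 12.8 in the depleted libraries and 26.7 and 18.6 in the controls, and the TFRC to FTH1 ratio is higher in both depleted libraries.

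The iron exporter ferroportin, SLC40A1, was listed at 0 in both depleted libraries and at 0.919 and 0.097 TPM in the controls. It did not reach the minimum for testing, and no fold is computed against a group listed at 0.

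Neither iron-regulatory protein passed the test. ACO1, also called IRP1, a cytosolic aconitase when it holds its iron-sulphur cluster, had 5.88 and 2.75 TPM in the depleted libraries and 5.80 and 7.33 TPM in the controls. The difference was -0.57 ± 0.48 on the log2 scale (limma adjusted p = 0.405). IREB2, also called IRP2, had 18.4 and 7.29 TPM in the depleted libraries and 14.0 and 12.9 TPM in the controls, and its log2 difference of -0.19 ± 0.46 did not pass either (limma adjusted p = 0.807). For both genes the groups overlapped, and depleted replicate 2 was the lowest of the 4 libraries. The sign of the IREB2 value turned without depleted replicate 2 (0.43), and with the coding-length trend removed both signs turned (ACO1 0.19, IREB2 0.62).

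PCBP1, which delivers iron to ferritin, had 23.8 and 7.86 TPM in the depleted libraries and 15.4 and 19.7 TPM in the controls. The depleted values again enclosed the control values, and the log2 fold change of -0.31 ± 0.45 did not pass (limma adjusted p = 0.653). It was 0.43 without depleted replicate 2. PCBP1 shares 5.08% of its coding windows with other genes.

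HMOX1, the inducible oxygenase that frees iron from heme, was lower in the depleted libraries. HMOX1 (ENSG00000100292, chromosome 22, 35380361 to 35394214, plus strand) had 33.1 and 21.3 TPM in the depleted libraries and 62.8 and 62.1 TPM in the controls. The groups were apart, with nearly equal controls. HMOX1 fell by 1.20 ± 0.42 on the log2 scale, 2.30-fold lower (95% confidence interval -2.03 to -0.37, limma adjusted p = 0.0226). Without the filter on low values it did not pass (limma adjusted p = 0.0783). Leaving out depleted replicate 2 ended the call (-0.90, limma adjusted p = 0.22), as did leaving out negative control replicate 1 (0.253) or 2 (0.138), and median-ratio scaling of the libraries (-1.01, 0.0583).

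In all, 9 of the 10 genes passed the filter on low values, of which FTH1, FTL and HMOX1 fell, SLC11A2 rose and 5 did not pass the test. Across all 11623 tested genes, 25.7% were called, 6.21% higher and 19.5% lower in the depleted libraries. The split over all genes depends on scaling: with median-ratio scaling 27.1% were called, 10.8% higher and 16.4% lower, and with the coding-length trend removed 21.9%, 9.54% higher and 12.4% lower. The 9 genes'  median log2 fold change was -0.31, beside -0.16 over all tested genes. The depleted and control values of 5 of the 9 did not overlap (FTH1, FTL, HMOX1, SLC11A2 and TFRC), beside 64.4% of all tested genes (26.8% higher and 37.6% lower in the depleted libraries). Only FTH1 was called when negative control replicate 1 was left out, where 3.3% of all tested genes were called. Leaving out negative control replicate 2 or depleted replicate 2 kept 2 calls, FTH1 and FTL, beside 15.5% and 12.9% of all tested genes.

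**Figure D3:**
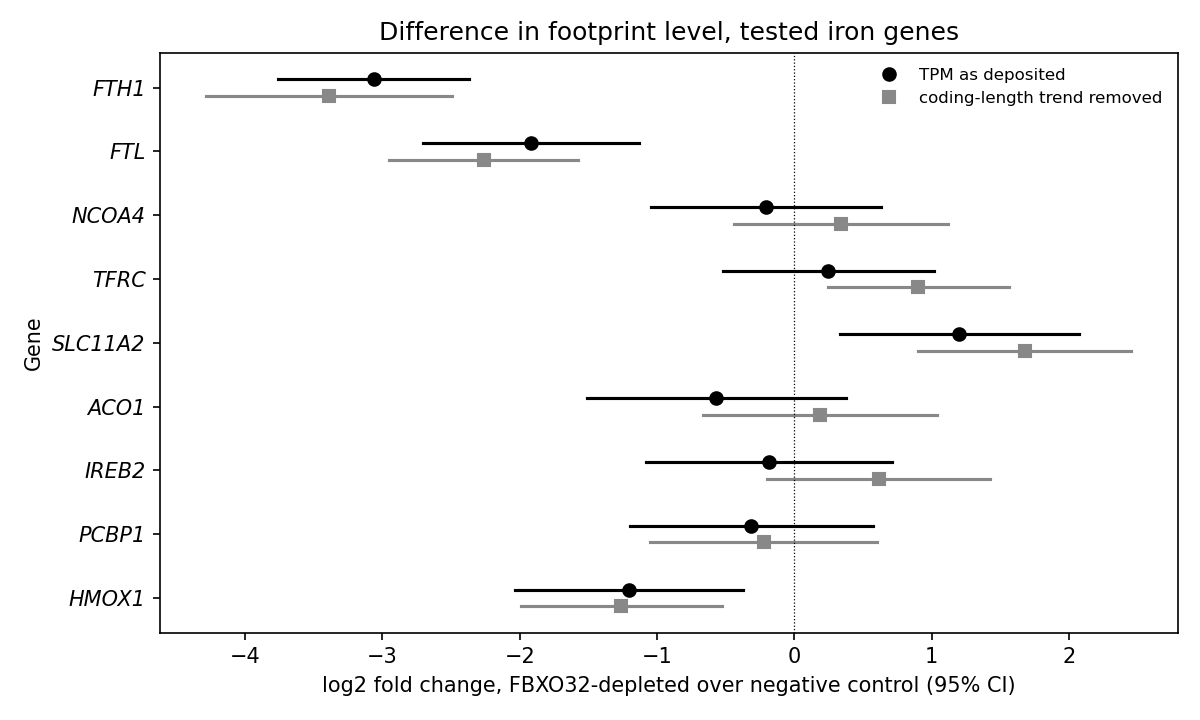
Log2 fold change of the 9 tested iron genes, FBXO32-depleted over negative control, with its 95% confidence interval, as deposited (black circles) and with the coding-length trend removed (grey squares). The intervals of FTH1, FTL, HMOX1 and SLC11A2 exclude 0 in both settings, and that of TFRC excludes 0 only with the trend removed.

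Fold changes in these libraries moved with coding length across genes, with short coding sequences higher and long ones lower in the depleted libraries. The Spearman correlation of log2 fold change with coding length was -0.46 across tested genes, which are not independent replicates. The ferritin genes went against that trend. FTL, with 525 coding nt, lies in the bin of 75 to 537 nt, where the median log2 fold change was 0.57 and 5.65% of genes were called lower. FTH1, with 549 nt, lies in the bin of 540 to 741 nt, with a median of 0.38 and 5.24% called lower. HMOX1, with 864 nt, lies where the median was 0.15 and 9.89% were called lower. SLC11A2, with 1770 nt, lies where the median was -0.41 and 2.64% were called higher. With the trend removed the log2 fold changes were -3.39 for FTH1, -2.26 for FTL, -1.26 for HMOX1 and 1.68 for SLC11A2, and all passed (limma adjusted p = 0.00024, 8.12e-06, 0.0102 and 0.00156). Whether any of the trend comes from depletion was not tested.

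**Figure D4:**
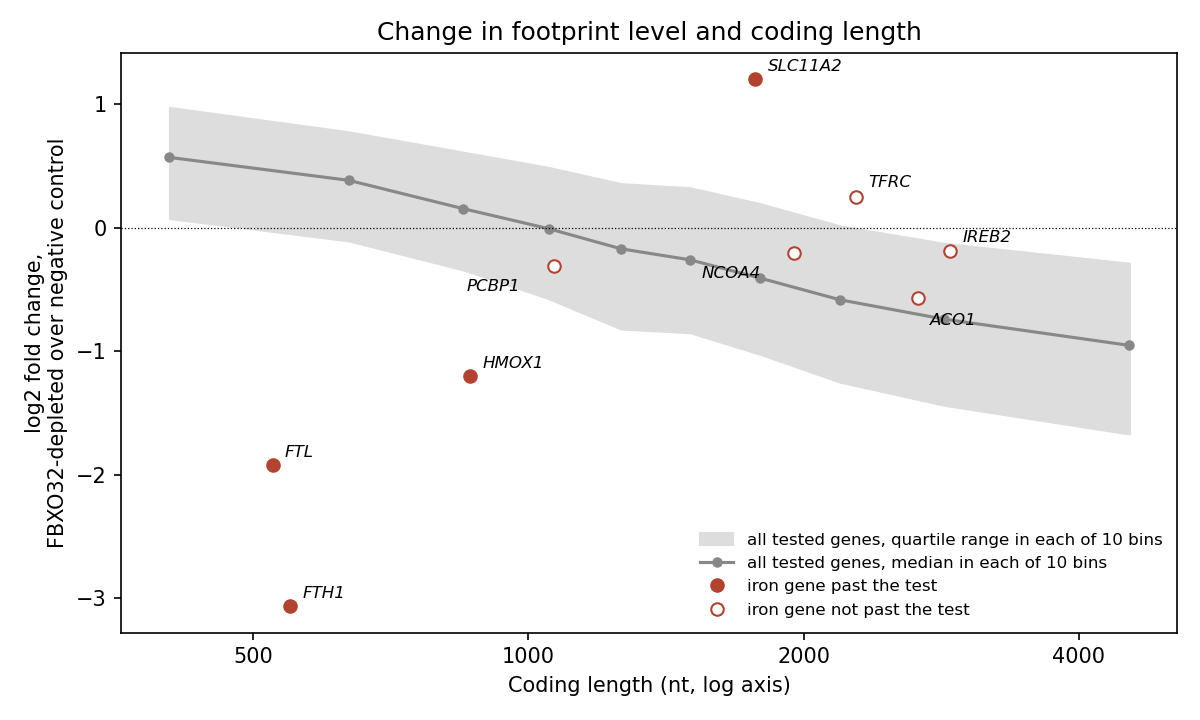
Log2 fold change, FBXO32-depleted over negative control, against coding length on a log axis, with the median (line) and quartile range (band) of all tested genes in 10 bins and the tested iron genes as circles, filled where they passed the test. FTH1 and FTL lie far below the band at the short end, where the median is above 0, and SLC11A2 lies above it.

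Genes with the hairpin motif were set beside the ferritin genes. Of 20 tested genes with a match in the 5′ UTR, 0 rose and 6 fell (30.0%), leaving 14 that did not pass, beside 6.21% higher and 19.5% lower over all tested genes. Without FTH1 and FTL, which prompted the search, 4 of 18 fell (22.2%). With them, the median log2 fold change was -0.51, beside -0.16 over all tested genes. FTH1 and FTL are among the 6, and the others, named after their values were seen, are PRPF18, CACNA1D, ADAR and ZBTB14, with log2 fold changes of -1.83, -1.81, -1.62 and -1.44. Of 97 tested genes with a match in the 3′ UTR, 8 rose (8.25%) and 18 fell (18.6%), leaving 71 that did not pass, close to the shares over all tested genes. The median was -0.08. A match is a description of letters and pairing, not a site shown to bind.

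The libraries' profile of FTH1 was closest to those of CHD3, LARP1 and PRDM2, by Euclidean distance between centred log2(TPM + 1) values over the 4 libraries (0.094, 0.11 and 0.19). LARP1 had 25.2 and 45.1 TPM in the depleted libraries and 395 and 210.3 TPM in the controls. In all 3, as in FTH1, depleted replicate 1 was the lowest library and negative control replicate 1 the highest. The choice by nearest profile favours such a shared order. With the coding-length trend removed, their log2 fold changes were -2.05, -2.23 and -2.16, against -3.39 for FTH1. The profile of TFRC was closest to those of SLC7A5, C1orf122 and RPL26L1 (distances 0.065, 0.065 and 0.068), none of which passed the test.

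The wider iron pathway was read from 9 lists of 95 genes, of which 85 are not among the 10. Of these 85, 76 were tested, 5 rose, 4 fell and 67 did not pass. Their median log2 fold change was 0.25, beside -0.16 over all tested genes, and 5 rises and 4 falls in 76 stand beside 6.21% and 19.5% of all tested genes. With the coding-length trend removed the median was 0.23, beside 0.08 over all tested genes. There were then 7 rises and 4 falls in 76, beside 9.54% and 12.4% of all tested genes.

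Of 18 heme genes, SLC48A1 and ABCB6 rose, HMOX1 and HMOX2 fell and 14 did not pass. SLC48A1, which carries heme out of endolysosomes, had 215 and 304 TPM in the depleted libraries and 57.3 and 76.5 TPM in the controls. SLC48A1 rose by 1.93 ± 0.39 (log2, SE; limma adjusted p = 1.65e-05). ABCB6, a porphyrin transporter, had 22.1 and 19.9 TPM in the depleted libraries and 5.86 and 11.6 TPM in the controls (log2 fold change 1.24 ± 0.46, limma adjusted p = 0.0305). HMOX2, the constitutive heme oxygenase, had 59.3 and 45.5 TPM in the depleted libraries and 133 and 110.2 TPM in the controls, and fell by 1.21 ± 0.40 (limma adjusted p = 0.0153). Both heme oxygenase genes were thus lower, and in neither did the groups overlap, but with median-ratio scaling neither passed (HMOX2 -1.01, limma adjusted p = 0.0533). The enzymes of heme synthesis did not pass, among them UROD, a decarboxylase of the pathway, at 72.7 TPM in the depleted libraries and 110.8 TPM in the controls on average. PGRMC1, a heme-binding membrane protein, averaged 352 TPM in the depleted libraries and 203 TPM in the controls. BLVRB, a biliverdin reductase, averaged 95.03 TPM in the depleted libraries and 64.4 TPM in the controls.

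Of 27 genes of iron-sulphur cluster assembly, 2 rose and 1 fell, leaving 24 that did not pass. Their median log2 fold change was 0.47, beside -0.16 over all tested genes. With the coding-length trend removed it was 0.23, beside 0.08 over all tested genes. ISCA1, a late-acting assembly factor, had 36.4 and 64.7 TPM in the depleted libraries and 19.4 and 19.7 TPM in the controls (1.27 ± 0.43, limma adjusted p = 0.0178). CIAO2A, a cytosolic targeting factor, had 61.9 and 112.8 TPM in the depleted libraries and 27.7 and 40.9 TPM in the controls (1.29 ± 0.41, limma adjusted p = 0.0113). HSPA9, the mitochondrial HSP70 that helps transfer the cluster, had 103.8 and 36.8 TPM in the depleted libraries and 202 and 203 TPM in the controls, and fell by 1.69 ± 0.39 (limma adjusted p = 0.000242). With the coding-length trend removed, the calls of ISCA1 and CIAO2A ended (limma adjusted p = 0.124 and 0.0655). BOLA3, CIAO2B and CISD1 did not pass, with log2 fold changes of 0.70, 0.61 and 0.66.

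Of 10 tested uptake genes, SLC25A37, the mitoferrin that brings iron into mitochondria, fell, SLC11A2 rose and 8 did not pass. SLC25A37 had 15.2 and 25.9 TPM in the depleted libraries and 52.2 and 52.2 TPM in the controls (log2 fold change -1.35 ± 0.43, limma adjusted p = 0.011). The zinc and iron importer gene SLC39A14 and the second mitoferrin gene SLC25A28 had log2 fold changes of 0.39 and -0.44 and did not pass. Of 3 tested genes of export and hepcidin control, 0 passed. HFE, a partner of the transferrin receptor, had 26.8 and 26.8 TPM in the depleted libraries and 15.0 and 14.5 TPM in the controls, without passing (0.82 ± 0.45). BMP6 and CP had log2 fold changes of 0.30 and 0.72.

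Among the genes that control the iron-regulatory proteins, FBXL5, the F-box protein that targets IREB2 for degradation, had 13.8 and 10.9 TPM in the depleted libraries and 6.82 and 8.28 TPM in the controls. Its log2 fold change of 0.64 ± 0.46 did not pass. Its ligase scaffold CUL1 fell, with 12.3 and 6.82 TPM in the depleted libraries and 22.7 and 21.3 TPM in the controls (-1.18 ± 0.45, limma adjusted p = 0.0407). CUL1 no longer passed once the coding-length trend was removed (limma adjusted p = 0.369) or the libraries were scaled by median ratio (0.0723). SKP1, the adaptor, had a log2 fold change of -0.77 and did not pass. With the coding-length trend removed, FBXL5 passed as higher (1.23, limma adjusted p = 0.0217) and SKP1 as lower (-1.15, 0.0054).

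The remaining lists held 1 further call. GPX4, the selenoprotein that reduces lipid peroxides, had 756 and 1424 TPM in the depleted libraries and 627 and 434 TPM in the controls (log2 fold change 0.99 ± 0.36, limma adjusted p = 0.0295). GPX4 no longer passed once the coding-length trend was removed (limma adjusted p = 0.0694) or the variance trend was left out (0.0812). NQO1, NFE2L2 and TXNRD1 of the same NRF2 list had log2 fold changes of -0.30, 0.42 and 0.09 and did not pass. With the coding-length trend removed, 2 of the 10 genes of this list rose and 0 fell. NFE2L2 was among the 2 (0.91, limma adjusted p = 0.0437). The chaperone genes BOLA2, which has a near-identical copy, PCBP2 and GLRX3 did not pass (0.74, 0.28 and -0.20). Nor did EPAS1 and CDC42BPA, whose mRNAs have a described IRE (-0.77 and -0.48). HERC2, the ligase that turns over NCOA4, had a log2 fold change of -0.87 and did not pass, and mitochondrial ferritin, FTMT, was listed at 0 throughout.

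Of the 9 calls outside the 10 genes, 0 held without negative control replicate 1 (limma adjusted p from 0.0621 to 0.462). SLC48A1 alone held without negative control replicate 2, SLC48A1 and SLC25A37 held without depleted replicate 2, and 7 held without depleted replicate 1, where SLC25A37 and ABCB6 ended. SLC48A1 had log2 fold changes of 1.68 to 2.18 when 1 library was left out.

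**Figure D5:**
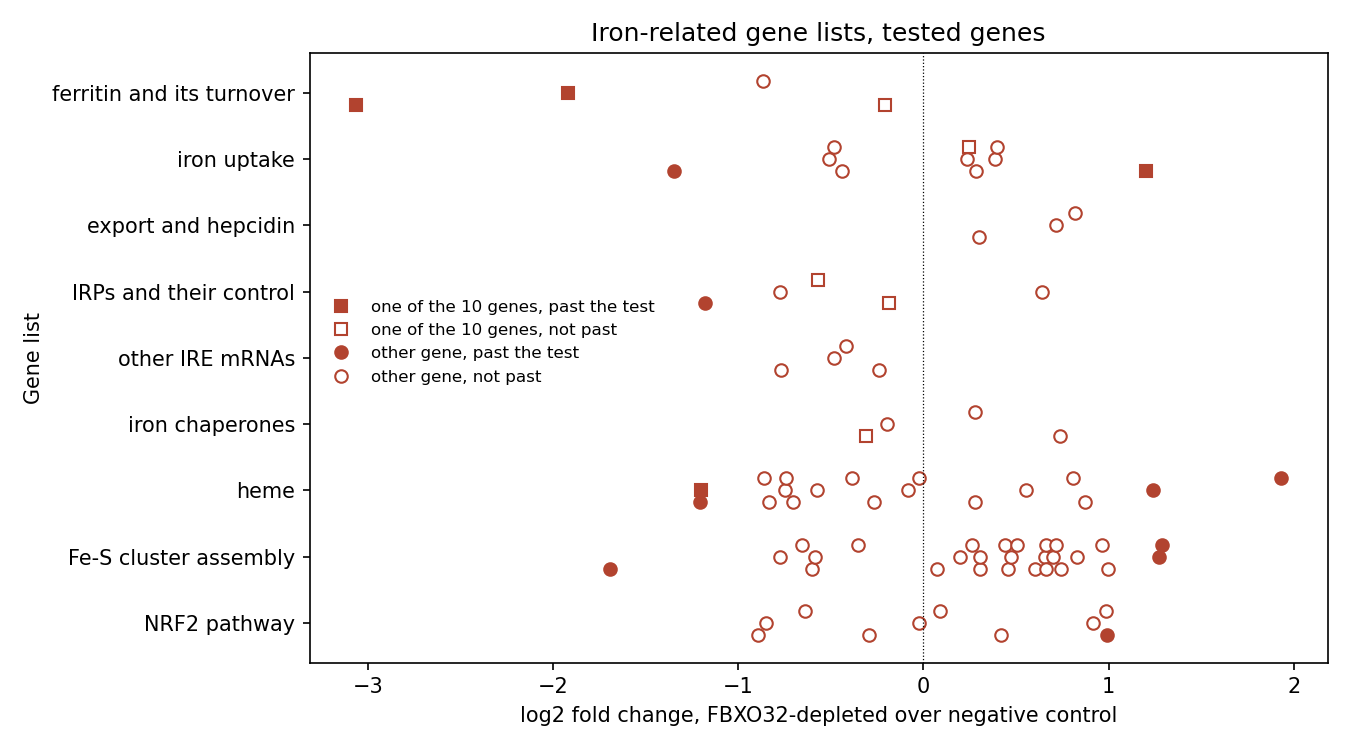
Log2 fold change, FBXO32-depleted over negative control, of each tested gene in the 9 iron lists, squares for the 10 named iron genes and circles for the others, filled where the gene passed the test. FTH1 and FTL stand at the low end, SLC48A1 at the high end, and most iron-sulphur genes lie right of 0 without passing.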

How the data were processed

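Ribosome-protected fragments of 4 PANC-1 libraries were profiled, 2 per group. The deposited table gives TPM per gene and library, per the file headers. Per the submitters' processing notes, the build was GRCh38 and the tools included Bowtie2 2.2.8, RSEM, STAR, fastp and DESeq2, with no roles stated. The sources used here do not state the annotation, the counted region or how multiply matching reads were treated. KO columns were read as FBXO32-depleted and NS columns, the only other arm, as negative control, with the number as the bioreplicate number, from the column names alone. Depth is unknown.

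Values of log2(TPM + 1) of genes reaching 1 TPM in 2 or more libraries were fitted with limma 3.58.1 (R 4.3.3; trend and robust moderation, no covariates) and p-values adjusted by Benjamini and Hochberg over 11623 genes (threshold 0.05). Only 2 residual degrees of freedom remain, and limma's prior degrees of freedom were infinite for 10272 genes, whose spread is then the pooled one. The 9 tested iron genes are among them. Fold changes on this scale understate the change of low genes. TPM means carry the SD over 2 libraries, log2 fold changes the SE. The fit was also run on simulated data, whose outcome is not given here and is not used as support. Ensembl identifiers were matched to symbols (19702 of 20307 genes), and positions, coding lengths (longest coding sequence) and UTRs were taken from GENCODE release 29.

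The 10 genes and the 9 lists were chosen with earlier results of these data known. Named genes are the 10, FBXO32, every list member past the test, up to 3 of highest TPM per list that did not pass, and, for FTH1 and TFRC, the 3 genes of at least 50 TPM with the nearest profile, apart from items withheld, which are not reported here. Alternatives were median-ratio scaling, other filters and pseudocounts, other moderation, a block for the replicate number, leaving out mitochondrial and the 20 most abundant genes, removal of the coding-length trend and leaving out each library.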

Additional observations from a re-analysis of the deposited data

How the results depend on the processing

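FTH1 kept its direction and passed under every alternative run, with log2 fold changes from -3.60 to -2.53. Over the 9 tested iron genes and 13 alternatives, 98 of the values kept direction and side of the threshold, 11 stayed in direction but no longer passed, 1 (TFRC, coding-length trend removed) newly passed and 7 reversed. The reversed values were none of a called gene: with the coding-length trend removed ACO1 0.19, IREB2 0.62 and NCOA4 0.34, and with 1 library left out -0.80 to 0.43 for IREB2, -0.84 to 0.42 for NCOA4 and -1.05 to 0.43 for PCBP1. C1orf122 and RPL26L1 turned to -0.34 and -0.20 with the trend removed. Without the filter on low values 1529 genes, 2 of the 10 (FTH1 and FTL) and 3 genes of all lists were called, against 2990, 4 and 13. Leaving out each library gave 384 to 3035 genes, 1 to 4 of the 10 and 1 to 15 list genes, in fits that assume a lone library to vary like the others. The FTH1 to FTL difference in log2 ratio then ran from -1.45 to -0.80 and that of TFRC to FTH1 from 2.61 to 4.02. With the trend removed the TFRC to FTH1 difference was 4.30. Over all tested genes the median log2 fold change was 0.02 with median-ratio scaling, against -0.16 without it. Same-numbered libraries did not deviate together (correlation -0.05), but this cannot decide whether they were handled together. The labels state no pairing. With the replicate number as a block 2419 genes, 3 of the 10 and 9 list genes were called, and SLC11A2 did not pass (limma adjusted p = 0.0531). Unknown depth and 2 libraries per group limit every value, and a gene that did not pass is not shown to be unchanged.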
